A study of Homo sapiens with 24 samples.

Results

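Messenger RNA is made and spliced in the nucleus and leaves it through the nuclear pores, usually once its introns are gone. Transcripts that keep an intron can be held in the nucleus or destroyed there, and some long non-coding RNAs stay in the nucleus as part of their function. In the cytoplasm, an intron that brings a premature stop codon exposes an mRNA to nonsense-mediated decay (NMD), a pathway that removes such transcripts during translation. ERH is a small, conserved nuclear protein that binds RNA-processing factors, and the data below show how RNA was divided between nucleus and cytoplasm in cells in which its gene was targeted.

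The libraries described are the 3 nuclear and 3 cytoplasmic libraries of cells with a guide RNA against *ERH* (sgERH) and with the solvent DMSO, which are 6 of 24 libraries in the series. They were taken by their labelled guide, fraction and treatment, and fractions with the same replicate number were treated as 1 culture. The cells were RKO, an established human colon carcinoma line, as a clone with doxycycline-inducible Cas9 in which guide-expressing cells had been sorted. All received doxycycline at 100 ng/mL for 5 days and then DMSO for 4 h, the treatment time that other libraries, not described here, spent in cycloheximide. The 6 control libraries, 3 per fraction, differed only in carrying a guide against the *AAVS1* locus (sgAAVS1). Fractions were made by mild detergent lysis and centrifugation and their polyadenylated RNA was sequenced. The methods describe no spike-in RNA, so a level is a share of its own fraction, and "higher in the nucleus" means a larger share of nuclear than of cytoplasmic RNA, not more molecules. The replicates were labelled biological with no more detail, so p-values measure the spread between these libraries.

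The sgERH libraries held 33.1 to 41.8 M expected counts in the nucleus and 44 to 60.5 M in the cytoplasm. The 13 mitochondrial mRNAs, which lie outside the nucleus, took 5.15 to 6.22% of cytoplasmic and 0.642 to 0.728% of nuclear counts, and long non-coding RNA (lncRNA) genes took 1.39 to 1.44% of cytoplasmic and 5.15 to 5.26% of nuclear counts. Reads across an exon-intron boundary came to 32.3 to 32.4 per 100 spliced reads in the nucleus and 7.31 to 7.51 in the cytoplasm, and to 38.8 to 40.6 and 7.12 to 7.25 in sgAAVS1 cells. *ERH* itself had 10.2 to 13.4 counts per 1e+06 (CPM, scaled between libraries by TMM) in sgERH nuclei and 14 to 19.6 CPM in sgAAVS1 nuclei, and 61.3 to 87.9 against 141 to 167 CPM in the cytoplasm, so the targeted transcript was lower but present. Of 13 colon epithelial markers 5 passed the filter on low counts, and the list summed to 110 to 115 CPM in the nucleus and 178 to 192 CPM in the cytoplasm, led by the keratin gene *KRT18*. *CDX1*, *CEACAM5*, *KRT20* and *SLC26A3* were at 0 in all 6 libraries. The 11 fibroblast markers summed to 6.41 to 6.96 CPM in the nucleus and 22.9 to 23.7 CPM in the cytoplasm, mostly *VIM*, and the 12 leukocyte markers to 142 to 197 and 382 to 408 CPM, led by the lysosomal gene *CD68*, with *CD3E*, *CD4*, *MS4A1* and *LYZ* at 0 in all 6 libraries.

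In sgERH cells 4800 of 16856 genes (28.5%) had a larger share in the nucleus and 4053 (24%) a smaller one, called at an adjusted p of at most 0.05 (edgeR quasi-likelihood test, culture as a block) and a log2 fold change of at least 1 in size. The median log2 fold change over all of them was 0.02. Counts for the gene lists below are to be read against these shares of 28.5% and 24%. Protein-coding genes were called lower more often than higher, with 2819 higher and 3429 lower of 12617 and a median of -0.21. Of 3095 lncRNA genes, 1402 were higher and 395 lower, with a median of 1.18.

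**Figure D1:**
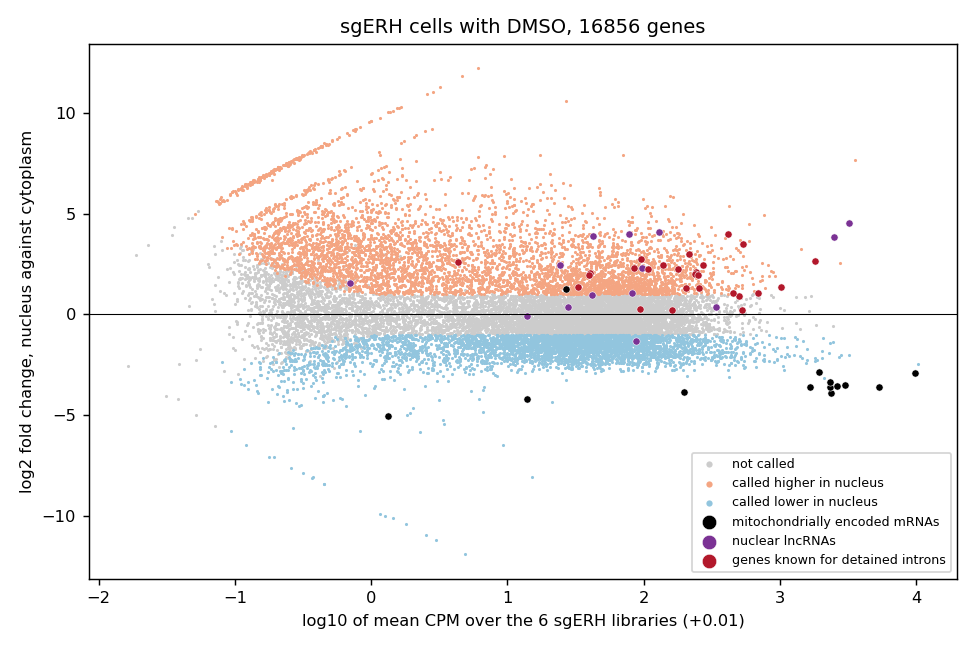
Log2 fold change between nucleus and cytoplasm (vertical) against the log10 of the mean CPM over the 6 sgERH libraries (horizontal, with 0.01 added), 1 point per gene of the 16856 tested, with genes called higher in orange, genes called lower in light blue and the nuclear lncRNAs in purple. The mitochondrial mRNAs (black) sit below 0 apart from *MT-ND6*, and the 26 genes known for detained introns (red) sit above 0.

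Nuclear-retained RNAs marked the nuclear fraction. *MALAT1*, an abundant lncRNA of nuclear speckles, stood at 4119, 4591 and 5355 CPM in the nuclear libraries and 337, 309 and 324 CPM in the cytoplasmic ones. Its log2 fold change was 3.85 ± 0.10 (SE, adjusted p = 2.05e-14, edgeR). *NEAT1*, which builds paraspeckles, stood at 5857, 5722 and 6941 CPM against 248, 275 and 284 CPM, with a log2 fold change of 4.52 ± 0.07. The fractions did not overlap for either gene, and cytoplasmic levels were more than 10 times lower. Of the 14 tested nuclear lncRNAs on the list, 9 were called higher and 1 lower, with a median of 1.94 against 2.45 in sgAAVS1 cells, and the one called lower was *OIP5-AS1*, at -1.32 ± 0.06. That call was lost when effective transcript length was taken into account (-0.86). Transcripts that host microRNAs, whose stems are cut out in the nucleus, were higher in 18 and lower in 2 of 30, with a median of 1.71. Among them *MIR222HG* stood at 442, 464 and 435 CPM against 19.9, 22 and 20.4 CPM, and *MIR17HG*, the host of an oncogenic microRNA cluster, had a log2 fold change of 3.96 ± 0.07.

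The lncRNAs that host small nucleolar RNAs or act in the cytoplasm were split, with 5 higher and 6 lower of 21 and a median of -0.21, which became 0.01 when libraries were scaled by their totals alone. *SNHG1* stood at 934, 931 and 981 CPM against 135, 131 and 122 CPM, whereas *NORAD*, a lncRNA that binds Pumilio proteins in the cytoplasm, was lower in the nucleus at -1.85 ± 0.06 and *ZFAS1* at -1.80 ± 0.07. Over wider groups, 112 of 247 named intergenic lncRNAs (LINC) were higher and 32 lower (median 1.06), and 176 of 501 antisense lncRNAs were higher and 94 lower (median 0.42, and 0.13 to 0.64 over the alternatives). The sources do not say if counting was stranded, so reads of an antisense gene and of its partner cannot be told apart.

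The opposite end was held by mRNAs for housekeeping machinery. All but 1 of the 13 mitochondrially encoded mRNAs were lower in the nucleus, with a median of -3.58. *MT-ATP6*, an ATP synthase subunit, stood at 327, 286 and 297 CPM in the nucleus and 4303, 4849 and 4167 CPM in the cytoplasm, and *MT-CO2*, a cytochrome oxidase subunit, at 374, 339 and 356 against 4070, 3961 and 4957 CPM. Every nuclear library lay more than 10 times below every cytoplasmic one for both genes. The exception, *MT-ND6*, the one mRNA read from the other strand of mitochondrial DNA, stood at 35.7, 34.3 and 39.1 CPM in the nucleus and 15.3, 29.8 and 7.13 CPM in the cytoplasm (1.25 ± 0.28, adjusted p = 0.000881, edgeR). Its cytoplasmic libraries spread widely, and without culture 3 the value was 0.70 and not called.

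Of 81 cytosolic ribosomal protein genes, 78 were lower in the nucleus and none higher, with a median of -1.96. *RPL23A* stood at 158, 143 and 149 CPM in the nucleus and 966, 958 and 911 CPM in the cytoplasm, and *RPS12* at 160, 130 and 132 against 818, 900 and 648 CPM. Translation factors followed, with 23 of 35 lower and 1 higher (median -1.47). *EEF1A1*, which brings aminoacyl-tRNA to the ribosome, stood at 3249, 3150 and 3057 CPM against 17906, 16859 and 17645 CPM, and *TPT1*, a translationally controlled growth gene, had a log2 fold change of -2.73 ± 0.06. The member higher in the nucleus was *EIF4A2*, an RNA helicase of translation initiation whose gene also holds small nucleolar RNAs, at 1102, 1080 and 1207 CPM against 337, 347 and 363 CPM.

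Respiratory chain genes encoded in the nucleus were lower in 59 of 80 and higher in 4, with a median of -1.77. *ATP5PF* and *UQCR10*, a subunit of ATP synthase and of complex III, had log2 fold changes of -2.67 ± 0.08 and -2.70 ± 0.12. Those higher included *NDUFB1* (1.84 ± 0.22) and *NDUFS7* (1.02 ± 0.08), both of complex I, but the direction of both turned when transcript length was taken into account (-0.94 and -0.78). Proteasome subunits were lower in 24 of 37 and higher in none (median -1.28), with *PSMB5*, a catalytic subunit, at -2.15 ± 0.06. In glycolysis 10 of 18 genes were lower and 2 higher (median -1.24). *GAPDH* stood at 543, 552 and 532 CPM against 2723, 2450 and 2683 CPM, and *PFKL*, a phosphofructokinase, went the other way at 263, 244 and 292 CPM against 33.1, 28 and 32 CPM. Genes of the ER folding machinery were lower in 11 and higher in 2 of 35 (median -0.44).

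**Figure D2:**
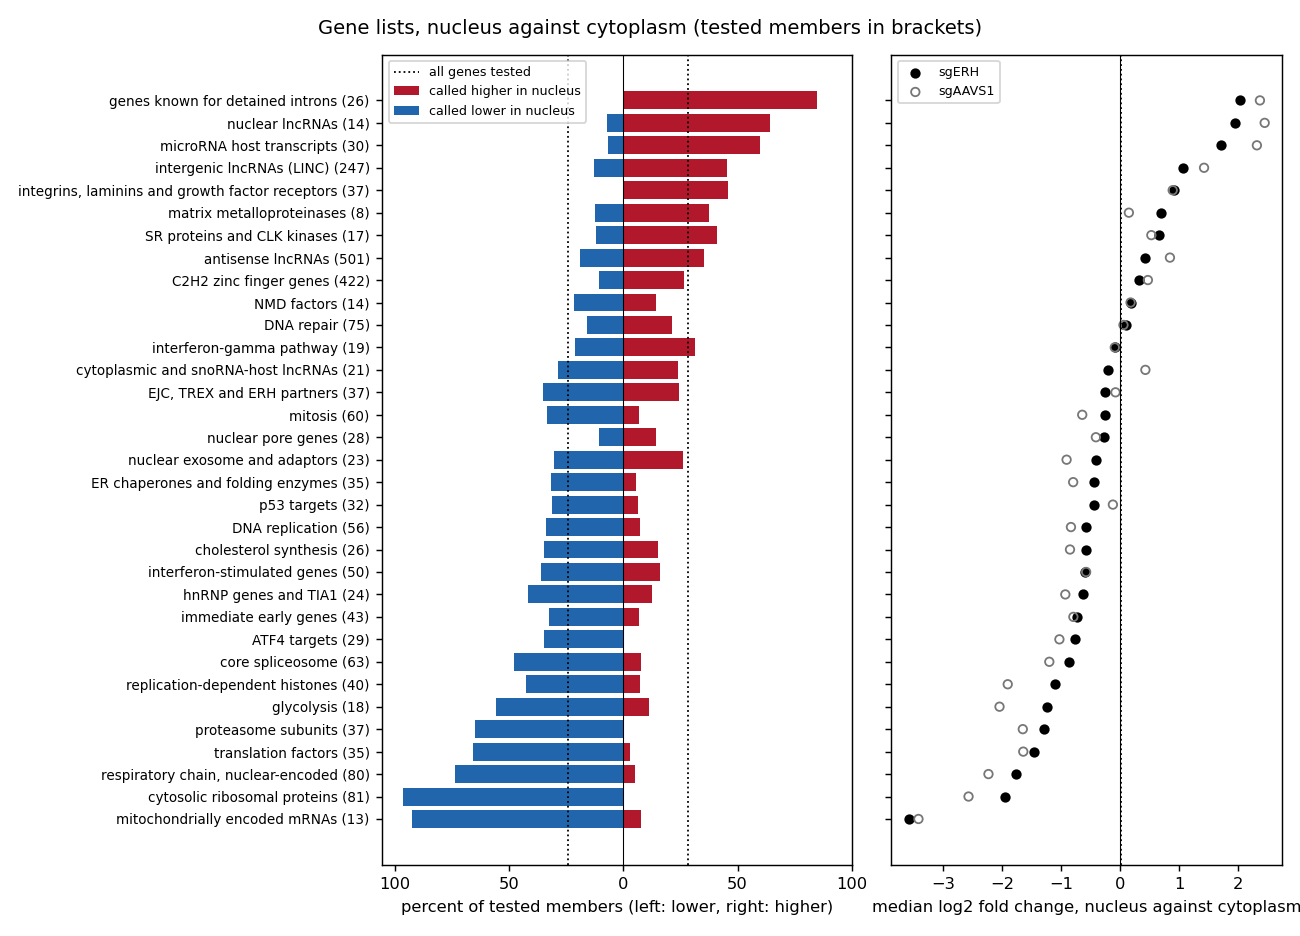
Left, the percent of tested members of each gene list called higher (right of 0) or lower (left of 0) in sgERH nuclei, with the number tested in brackets and dotted lines for all genes tested (28.5% and 24%). Right, the median log2 fold change of each list in sgERH (filled) and sgAAVS1 cells (open). Genes known for detained introns and nuclear lncRNAs lie farthest to the right and mitochondrial mRNAs farthest to the left.

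Genes of RNA processing did not move as a block. Of 26 genes known for detained introns, which are kept in nuclear, polyadenylated transcripts, 22 were called higher in the nucleus and none lower, and all 26 lay above 0 (median 2.03). *CCNL2*, a cyclin of nuclear speckles, stood at 783, 758 and 802 CPM in the nucleus and 47.3, 48.9 and 50.9 CPM in the cytoplasm, and *OGT*, the enzyme that adds O-GlcNAc to proteins, at 948, 955 and 1051 against 83.7, 86.6 and 89.0 CPM. *CLK1*, a kinase of SR splicing factors, was 2.76 ± 0.06 higher on the log2 scale. *MAT2A*, which makes S-adenosylmethionine, had a log2 fold change of 0.91 ± 0.05, under the limit for a call in this scaling and over it in 4 alternatives (1.04 to 1.24). SR protein and CLK genes were higher in 7 and lower in 2 of 17 (median 0.65), a median that ranged from 0.31 to 0.87 over the alternatives, with *SRSF5* at 2.36 ± 0.07 and *SRSF3* at -1.23 ± 0.06. The core spliceosome went towards the cytoplasm, with 30 lower and 5 higher of 63 (median -0.87), from *SNRPF*, a small ring protein of the snRNPs (-2.65 ± 0.12), to *SNRNP70* of the U1 snRNP (2.18 ± 0.06). Genes for hnRNPs were lower in 10 and higher in 3 of 24 (median -0.62), with *HNRNPC* at -1.93 ± 0.05 and *HNRNPH1* at 1.89 ± 0.06.

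The list of exon junction, export and ERH partner genes was split, with 9 higher and 13 lower of 37 (median -0.25). *ZFC3H1*, which links nuclear RNA to the exosome, was higher at 2.62 ± 0.07 and *PNN*, a partner of the exon junction complex, at 2.18 ± 0.07, whereas *NXT1*, which pairs with the main mRNA export receptor, was lower at -2.43 ± 0.09 and *THOC7* of the THO complex at -2.21 ± 0.11. NMD factors were higher in 2 and lower in 3 of 14 (median 0.19), nuclear pore genes in 4 and 3 of 28 (median -0.27), and nuclear exosome genes in 6 and 7 of 23 (median -0.41).

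Integrin, laminin and growth factor receptor genes were higher in 17 of 37 and lower in none (median 0.92), led by the laminin chain *LAMB2* at 451, 430 and 394 CPM against 52.1, 47.7 and 60.8 CPM. DNA repair genes were higher in 16 (21.3%) and lower in 12 (16%) of 75 (median 0.10), both under the shares over all genes. They held *FANCL*, a ubiquitin ligase of the Fanconi anaemia pathway, at 177, 191 and 188 CPM against 12.4, 12.6 and 13.4 CPM, and *FANCA* at 3.00 ± 0.08. DNA replication genes were lower in 19 and higher in 4 of 56 (median -0.58), with the polymerase *POLE* at 2.68 ± 0.07 and the sliding clamp *PCNA* at -2.04 ± 0.06. Mitosis genes were lower in 20 and higher in 4 of 60 (median -0.26). C2H2 zinc finger genes were higher in 112 (26.5%) and lower in 44 (10.4%) of 422 (median 0.31), with *ZNF692* at 4.16 ± 0.07. The share called higher was thus under the 28.5% over all genes, and the share called lower under the 24%. Replication-dependent histones, most of which lack both introns and a poly(A) tail, were lower in 17 and higher in 3 of 40 (median -1.11), and their tailless transcripts are not captured in such libraries.

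Of the stress and signalling lists, ATF4 targets were lower in 10 and higher in none of 29 (median -0.76), p53 targets lower in 10 and higher in 2 of 32 (median -0.45), immediate early genes lower in 14 and higher in 3 of 43 (median -0.73), and cholesterol synthesis genes lower in 9 and higher in 4 of 26 (median -0.58). Matrix metalloproteinases were higher in 3 and lower in 1 of 8 tested. Interferon-stimulated genes were lower in 18 and higher in 8 of 50 (median -0.59). Of them *STAT2*, which carries the type I interferon signal, stood at 319, 320 and 288 CPM against 34.1, 29.5 and 35.0 CPM, and *IFITM2*, a membrane protein that blocks virus entry, was lower at -2.43 ± 0.09. The interferon-gamma pathway list was higher in 6 (31.6%) and lower in 4 (21.1%) of 19, near the 28.5% and 24% over all genes. It held *TYK2*, a JAK family kinase, at 597, 580 and 548 CPM against 57.0, 49.4 and 52.3 CPM. Also listed were *IRF9*, a DNA-binding factor of the interferon response, at 5.02 ± 0.17, and the phosphatase gene *PTPN11* at -1.38 ± 0.05. The list median of -0.08 turned to as much as 0.14 under other scalings.

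Where the fraction with more averaged 5 CPM or above, several genes called higher in the nucleus were nearly absent from the cytoplasm. *YJEFN3* stood at 143, 145 and 133 CPM in the nucleus and 0.664, 0.483 and 0.581 CPM in the cytoplasm, and *RHBDL1*, a rhomboid-like gene, at 37.9, 37.0 and 28.1 against 0.255, 0.023 and 0.116 CPM. *AMT*, of the glycine cleavage system, had no count in any cytoplasmic library and 12.7, 10.9 and 13 CPM in the nucleus, which is at least 206-fold higher against a floor of 3 counts per library. *SAPCD1*, likewise without a cytoplasmic count, was at least 108-fold and the lncRNA *ZSWIM8-AS1* at least 86.8-fold higher. *YJEFN3*, *AMT*, *SAPCD1* and *ZSWIM8-AS1* each overlap other annotated genes, so part of their reads may come from a neighbour. Of lncRNAs called lower in the nucleus and with at least 5 CPM in the cytoplasm, *MBNL1-AS1* and *HHLA3* had log2 fold changes of -2.94 ± 0.26 and -2.87 ± 0.17, each with 1 overlapping gene.

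Gene structure went with the difference. Protein-coding genes without an intron in the canonical transcript (313) had a median log2 fold change of -1.17, and genes with 1 or 2 introns (1280) of -1.04. The median was -0.77 with 3 to 5 introns, -0.34 with 6 to 10, 0.18 with 11 to 20 and 0.73 with 21 or more (1540 genes). In that last class 41.8% were called higher and 4.22% lower, and without introns 19.5% were higher and 53% lower. The sgAAVS1 medians rose likewise, from -1.52 without introns to 0.70 with 21 or more, so the relation was not particular to sgERH cells. Across the 12617 genes Spearman's rho was 0.37 with the number of introns, 0.20 with the mature length and 0.05 with the length of the gene, as descriptions over genes of the same libraries, which are not independent replicates. Genes were also grouped by their mean intron retention in sgAAVS1 nuclei, libraries outside the contrast. Those with a mean IR ratio under 0.05 (786) had a median of -0.40 and those at 0.5 or more (130) of 0.97, with 46.2% called higher. For sgAAVS1 cells, whose own nuclei set these classes, the medians were -0.65 and 1.32.

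**Figure D3:**
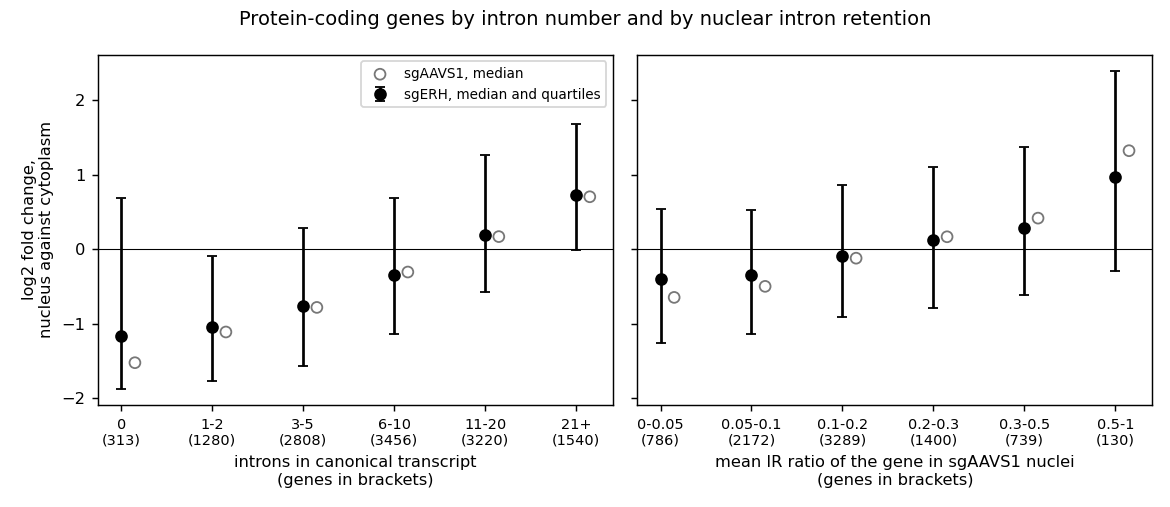
Log2 fold change between nucleus and cytoplasm of protein-coding genes by number of introns (left) and by mean IR ratio in sgAAVS1 nuclei (right). Filled points and bars are the median and quartiles in sgERH cells and open points the median in sgAAVS1 cells. The median rises from -1.17 to 0.73 over the classes of intron number and from -0.40 to 0.97 over those of retention.

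Among the genes the study follows, *JAK2*, *PIK3C2A* and *HSPA4L* differed from the control cells in the contrast between nucleus and cytoplasm. *JAK2*, the kinase of the interferon-gamma receptor, stood at 29.0, 31.6 and 35.0 CPM in sgERH nuclei and 8.72, 7.93 and 7.81 CPM in the cytoplasm, and at 28.9, 22.5 and 25.2 against 24.2, 25.6 and 22.1 CPM in sgAAVS1 cells. Every nuclear sgERH library was more than 3 times above every cytoplasmic one, while the sgAAVS1 fractions overlapped. The log2 fold change was 1.96 ± 0.11 in sgERH and 0.09 in sgAAVS1 cells, a difference of 1.88 ± 0.15 (adjusted p = 6.74e-07, edgeR).

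*PIK3C2A*, a lipid kinase of endocytic traffic, stood at 224, 241 and 253 CPM in sgERH nuclei and 86.2, 83.5 and 90.5 CPM in the cytoplasm (1.46 ± 0.06), and was lower in sgAAVS1 nuclei than cytoplasm (-0.49). The difference between the guides was 1.95 ± 0.08 (adjusted p = 1.44e-09, edgeR). *HSPA4L*, a chaperone of the HSP110 family, stood at 111, 108 and 117 CPM against 59.4, 57.7 and 60.3 CPM. Its log2 fold change of 0.92 ± 0.06 was under the limit for a call, reached 1.06 to 1.14 under other scalings, and differed from the -0.88 of sgAAVS1 cells by 1.80 ± 0.08 (adjusted p = 2.65e-09, edgeR).

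*GADD45A*, a gene induced by DNA damage, went the other way, at 89.0, 80.6 and 72.6 CPM in sgERH nuclei and 187, 188 and 158 CPM in the cytoplasm (-1.14 ± 0.06), where sgAAVS1 fractions did not differ (-0.01). The difference between guides was -1.13 ± 0.08 (adjusted p = 1.70e-07, edgeR), and the sgERH value was -0.92 and not called with libraries scaled by their totals. *IFNGR2*, the second chain of the interferon-gamma receptor, was lower in the nucleus in both guides (-1.57 ± 0.08 and -1.67). *IRF1*, the transcription factor induced by interferon-gamma, stood at 20.1, 20.2 and 19.8 CPM against 17.6, 19.1 and 17.7 CPM (0.15 ± 0.09, adjusted p = 0.158, edgeR), a value that became -0.41 with transcript lengths. *IFNGR1*, the ligand-binding chain, had -0.08 ± 0.09, which turned to 0.05 and 0.14 under other scalings. *MYC* and *JAK1*, at -0.78 ± 0.05 and -0.86 ± 0.05, stayed under the limit for a call. *ERH* mRNA was lower in the nucleus at -2.69 ± 0.10 in sgERH and -3.27 in sgAAVS1 cells.

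**Figure D4:**
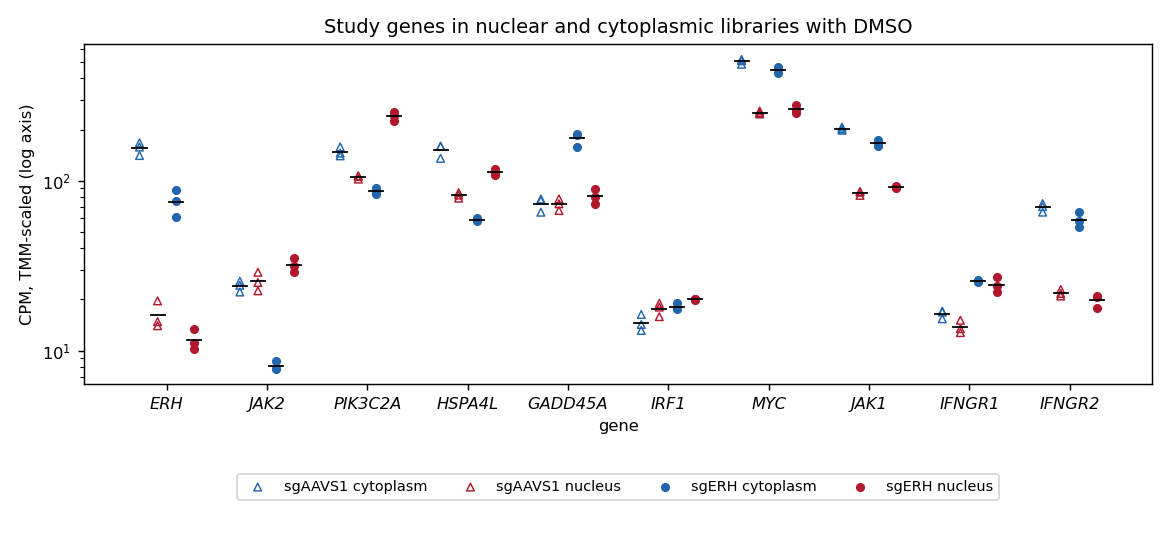
Level of 10 study genes in CPM (log axis) in each nuclear (red) and cytoplasmic (blue) library with DMSO, sgERH as filled circles and sgAAVS1 as open triangles. For *JAK2* the sgERH nuclear libraries lie at 29.0 to 35.0 CPM and the cytoplasmic ones at 7.81 to 8.72 CPM, while the sgAAVS1 fractions overlap.

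Over all genes, the ratio of nuclear to cytoplasmic share was called larger in sgERH than in sgAAVS1 cells for 286 (1.7%) and smaller for 591 (3.51%) (edgeR, same limits). Median contrasts between the fractions were smaller in size in sgERH than in sgAAVS1 cells for several of the lists, with -1.96 against -2.57 for ribosomal proteins, -1.77 against -2.23 for the respiratory chain and 2.03 against 2.37 for genes known for detained introns. For others they were larger, with -3.58 against -3.42 for mitochondrial mRNAs, -0.45 against -0.12 for p53 targets and 0.69 against 0.15 for matrix metalloproteinases. The median differences per gene for these lists were smaller, at -0.09, -0.15 and 0.25. No mitochondrial mRNA was called different between guides. Of the p53 targets 1 was called larger and 3 smaller, and of the 8 metalloproteinases 1 was called smaller. SR and CLK genes had medians of 0.65 and 0.53, but their median difference per gene was -0.08 and none was called. These are descriptions with no test.

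Introns gave the second measure. The IR ratio is the depth of reads in an intron divided by the sum of that depth and the spliced reads across it, so that 0 means none and 1 complete retention. Over the 120169 introns tested, the median IR ratio was 0.0699 in sgERH nuclei and 0.00052 in the cytoplasm. The sgAAVS1 medians were 0.0848 and 8.87e-05, so the sgERH median was lower in the nucleus and higher in the cytoplasm. In sgERH cells 38.9% of the introns had no depth in any cytoplasmic library. Relative to spliced reads, 66036 (55.0%) had more intron depth in the nucleus and 79 (0.0657%) less, at the same limits and with an IR ratio of at least 0.05 in the fraction with more. An intron was tested if its mean depth was at least 1 in any group of libraries. Those without depth in the sgERH cytoplasm could enter only through other groups, such as the nuclear ones. The medians and shares are therefore set in part by this filter.

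Sequences at both ends are shown for 7 introns, because they cover the range from introns found in nuclei to introns of the cytoplasm. The 5′ site has 3 exon and 6 intron bases and the 3′ site the last 20 intron and first 3 exon bases, read from the GRCh38 genome on the gene's strand, with the GT and AG of the intron in capitals. The first 5 introns were called more retained in the nucleus, *EPOR* intron 5 less, and *DPP7* intron 1 neither.
*JAK2* intron 16, chr9:5078445-5080228, plus strand, 5′ site: acaGTaagt
*JAK2* intron 16, 3′ site: ctgttcgtatcatttaaaAGttc
*PIK3C2A* intron 13, chr11:17122814-17129299, minus strand, 5′ site: acgGTaagt
*PIK3C2A* intron 13, 3′ site: ttatttttacatccgtgaAGgtt
*HSPA4L* intron 9, chr4:127805225-127805686, plus strand, 5′ site: cagGTataa
*HSPA4L* intron 9, 3′ site: ggtatacatcttattttcAGtgt
*MAT2A* intron 6, chr2:85542374-85542564, plus strand, 5′ site: cagGTaatg
*MAT2A* intron 6, 3′ site: cttaaatcctgtaatttcAGggt
*CLK1* intron 4, chr2:200859747-200860124, minus strand, 5′ site: gatGTatag
*CLK1* intron 4, 3′ site: gatttatttctctcttttAGatg
*EPOR* intron 5, chr19:11380972-11381055, minus strand, 5′ site: gcgGTgagg
*EPOR* intron 5, 3′ site: acctcctccccgcctcttAGacc
*DPP7* intron 1, chr9:137114577-137114646, minus strand, 5′ site: gggGTgagt
*DPP7* intron 1, 3′ site: aggttcgcgtccccccacAGccc
All 7 are GT-AG introns, as are 98.6% of those tested. Among the first 5, the last 20 intron bases hold 11 pyrimidines in *JAK2* intron 16 and 15 in *CLK1* intron 4. They hold 12 in *PIK3C2A* intron 13, *HSPA4L* intron 9 and *MAT2A* intron 6. Over the introns tested the median was 14. Among those free of annotated exons it was 14 at nuclear ratios under 0.05, at 0.05 to 0.2 and at 0.2 to 0.5, and 13 at 0.5 or more. The counts of these 5 introns thus do not stand for retained introns in general.

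Of 24 *JAK2* introns 12 could be tested, and 7 were called more retained in the nucleus and none less. Over all introns tested these shares were 55.0% and 0.0657%, so the count alone does not set *JAK2* apart. Intron 16 had IR ratios of 0.697, 0.639 and 0.696 in the nuclear and 0.0548, 0.0852 and 0.153 in the cytoplasmic libraries. Its log2 fold change relative to spliced reads was 4.40 ± 0.68 (adjusted p = 2.58e-10, edgeR), and the sgAAVS1 means were 0.291 and 0.0163. Retention was thus high in every nuclear library and present in every cytoplasmic one, on a mean depth of 57.9 and 2.79 reads. Intron 10 had 0.354, 0.415 and 0.395 against 0.0242, 0.0648 and 0.0149. Of the tested introns 5 had a mean nuclear ratio of at least 0.2 in sgERH and 1 in sgAAVS1 cells.

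*PIK3C2A* had 26 of 32 introns tested, 10 of them called more retained in the nucleus, a smaller share than the 55.0% over all introns. Intron 13 had IR ratios of 0.723, 0.526 and 0.724 in the nucleus and 0.114, 0.098 and 0.110 in the cytoplasm (4.03 ± 0.40, adjusted p = 1.43e-23, edgeR), against 0.221 and 0.00104 in sgAAVS1 cells. All introns from 9 to 16 were called, as were introns 4 and 6. Over the 26 tested introns the median nuclear ratio was 0.0323 in sgERH and 0.05 in sgAAVS1 cells. At least 0.2 was reached by 8 introns in sgERH and 3 in sgAAVS1 nuclei. Introns 9 (0.36 against 0.178) and 10 (0.5 against 0.354) were among those with a higher mean ratio in sgAAVS1 than in sgERH nuclei. In *HSPA4L* 9 of 17 tested introns were called, a share close to that over all introns. Intron 9 led at 0.363, 0.656 and 0.556 against 0.0637, 0.0119 and 0.0781 (4.31 ± 0.40). Its cytoplasmic ratios spread over several fold on a mean depth of 6.87 reads. The contrast of *JAK2* intron 16, *PIK3C2A* intron 13 and *HSPA4L* intron 9 was not called different between the guides, which at these cytoplasmic depths does not show that it was alike.

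Some introns of genes known for detained introns were prominent in nuclei of both guides. In *MAT2A* 5 of 8 introns were tested, and the last was not among them. *MAT2A* intron 6 had 0.375, 0.330 and 0.356 in sgERH nuclei and 0.00921, 0.00864 and 0.0148 in the cytoplasm (5.64 ± 0.17), with 0.391 and 0.00211 in sgAAVS1 cells. *CLK1* intron 4 had 0.808, 0.784 and 0.751 against 0.15, 0.191 and 0.160, and 0.817 and 0.0787 in sgAAVS1 cells. *CLK1* intron 3 had 0.734, 0.682 and 0.716 against 0.160, 0.240 and 0.211. *OGT* intron 4, which overlaps an annotated exon, had 0.937, 0.948 and 0.957 against 0.444, 0.427 and 0.641. The sgAAVS1 means were 0.776 and 0.0656 for *CLK1* intron 3 and 0.970 and 0.331 for *OGT* intron 4. For these 4 introns the contrast was called smaller in sgERH than in sgAAVS1 cells by edgeR (differences of -2.56, -1.54, -2.34 and -1.91) but not by limma.

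**Figure D5:**
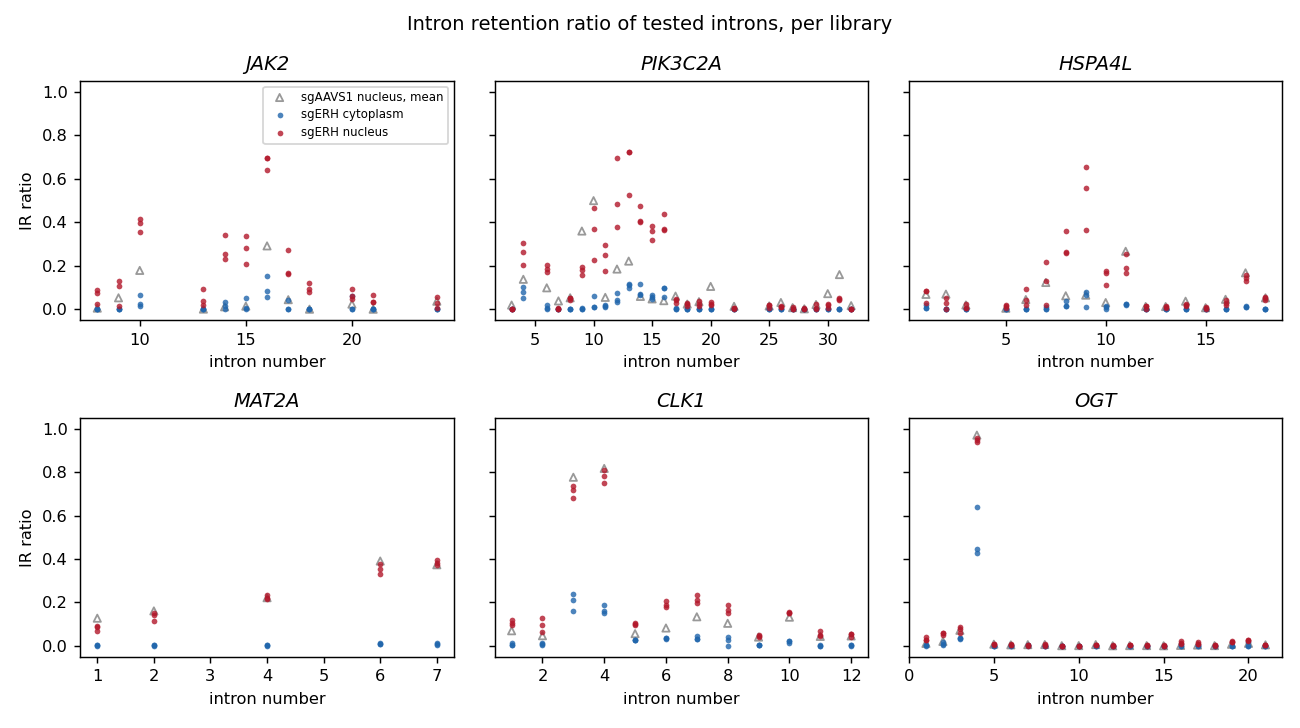
IR ratio (vertical, 0 to 1) by intron number of the tested introns of *JAK2*, *PIK3C2A*, *HSPA4L*, *MAT2A*, *CLK1* and *OGT*, with filled points for single sgERH libraries, nucleus in red and cytoplasm in blue, and grey triangles for the sgAAVS1 nuclear mean. Within *JAK2* and *PIK3C2A*, retention in sgERH nuclei peaks at introns 16 and 13 (means 0.677 and 0.658).

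Some introns were strongly retained in the nucleus and nearly or wholly absent from the cytoplasm at good depth. *PRRC2A* intron 27 had ratios of 0.205, 0.241 and 0.282 in the nucleus, on a mean depth of 465 reads, and no depth in any cytoplasmic library beside a mean of 1941 spliced reads. *CLCN7* intron 15, of a lysosomal chloride transporter gene, had 0.581, 0.570 and 0.606 against 0, 0 and 0.000601. Of 85338 introns free of annotated exons and with at least 100 cytoplasmic spliced reads, 13704 had a nuclear ratio of at least 0.2, and of these 6094 were under 0.01 and 552 at 0.1 or more in the cytoplasm.

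Others were as frequent in the cytoplasm. *DPP7* intron 1, 70 bases long, had 0.654, 0.594 and 0.594 in the nucleus and 0.544, 0.579 and 0.579 in the cytoplasm, a log2 difference relative to spliced reads of 0.29 ± 0.25 (adjusted p = 0.247, edgeR). *ZNF800* intron 5 had 0.437, 0.493 and 0.627 against 0.579, 0.632 and 0.616 (-0.54 ± 0.26), with overlapping fractions. *EPOR* intron 5, 84 bases long in the erythropoietin receptor gene, was among the 79 with less depth in the nucleus, at 0.0566, 0.0236 and 0.0911 against 0.598, 0.410 and 0.260 (-3.62 ± 0.54, adjusted p = 4.27e-11, edgeR). Its cytoplasmic ratios rest on a mean of 18.3 intron and 24.3 spliced reads. Of the 79, 43 overlap an annotated exon.

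Introns with high ratios in sgERH nuclei, whatever their ratio in sgAAVS1 cells, were shorter and richer in G and C. Among 116315 introns free of annotated exons, those with a nuclear ratio under 0.05 (49115) had a median length of 1868 bases and 42.3% GC. Those at 0.5 or more (5694) had 1173 bases and 51.2% GC. Their median nuclear ratio was 0.642 in sgERH and 0.696 in sgAAVS1 cells, so these classes do not pick introns that changed with the guide. For introns retained because of *ERH* loss, the paper reports a lower GC content than for introns not retained. In sgERH nuclei the median ratio was 0.0826 for first, 0.0533 for inner and 0.0957 for last introns. These are descriptions with no test.

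The contrast between fractions was called larger in sgERH than in sgAAVS1 cells for 43 introns (0.0358%) and smaller for 1822 (1.52%) by edgeR. A limma test on the log ratio called none, where 24850 passed at an unadjusted p under 0.05, and leaving out culture 3 of sgERH left 7 and 511, so these counts depend on the test and on single libraries.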

How the data were processed

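Polyadenylated RNA of nuclear and cytoplasmic fractions was sequenced as paired-end libraries. The authors trimmed reads with fastp, removed ribosomal RNA with SortMeRNA and quantified transcripts with STAR and salmon in the nf-core/rnaseq pipeline on GRCh38, and deposited expected counts per transcript together with effective transcript lengths. The authors also ran IRFinder-S, whose deposited files give, for each intron, a coverage depth signal, counts of spliced and boundary reads, and the IR ratio as a fraction from 0 to 1. Whether salmon counting used the strand is not given in the sources used here.

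Expected counts were summed over 252894 transcripts to 62754 genes and rounded, and 62700 genes matched the GENCODE annotation (0.00976% of counts did not). Genes were tested in R 4.3.3 with edgeR 4.0.16 by the quasi-likelihood test over 12 libraries with DMSO, with 6 cultures as blocks, a fraction effect within each guide, TMM scaling and a minimum count of 10 in the filter on low counts. Genes were called at a p of 0.05 or less after Benjamini-Hochberg adjustment with a log2 fold change of at least 1 in size. Introns were tested by edgeR on rounded intron depth against the larger of the left and right spliced counts of the same library, where the 2 together averaged at least 10 and the depth at least 1 in a group, and calls were kept where the IR ratio averaged 0.05 or more. Errors are standard errors, the size of the fold change divided by the root of the F statistic. Both fractions of a sample were made from the same lysed cells, and fractions with the same replicate number were taken as 1 culture and blocked, although no source ties the numbers to a lysate. The deviations of same-numbered fractions correlated at 0.018, 0.046 and 0.083 in sgERH and 0.023, 0.017 and 0.042 in sgAAVS1 cells. Both fits were tested on simulated data with known changes. Alternatives used limma 3.58.1, DESeq2 1.42.0, other scalings, filters and libraries.

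The members and the 37 gene lists were chosen with earlier results of these data known. Named genes were the study genes, the called genes with the largest changes among protein-coding and lncRNA genes, up to 3 called genes per list and direction, and the largest called differences between guides, the genes with the largest changes having a mean of at least 5 CPM in the fraction with more, and other list members were named after their values were seen. Genes with near-identical copies or read-through models were left out, and a few others are not reported here.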

Additional observations from a re-analysis of the deposited data

Results flagged for a closer look

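These results differed between sgERH and sgAAVS1 cells by the interaction of guide and fraction (edgeR). Positive values mean a larger ratio of nuclear to cytoplasmic share in sgERH than in sgAAVS1 cells, whichever fraction changed. Of all genes, 286 had a larger ratio and 591 a smaller one. Over introns the contrast was larger for 43 and smaller for 1822.

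Among the study genes the log2 differences were 1.88 for *JAK2*, 1.95 for *PIK3C2A*, 1.80 for *HSPA4L* and -1.13 for *GADD45A*. *KIF20B*, a mitotic kinesin, stood at 99.7, 105 and 117 CPM in sgERH nuclei and 35.8, 37.6 and 38.7 CPM in the cytoplasm, and differed by 1.5. *MYG1-AS1* differed by 2.11, *MAGOH*, a core exon junction protein, by 1.11 and *UBE2L6*, the ISG15 conjugating enzyme, by 1.03. *AHRR*, a repressor of the aryl hydrocarbon receptor, differed by 3.46, but its cytoplasmic libraries spread from 0.0511 to 2.31 CPM, and the call was lost without sgERH culture 1 (2.18) or 2 (2.53) and without sgAAVS1 culture 1 (2.63) or 2 (3.83). It was also lost with no replicate block (2.23), the length offset (2.42), median-ratio scaling (3.46), total counts (3.39), mitochondrial genes left out (3.45) and all 24 libraries (3.55). The call was lost too for *MAGOH* without sgERH culture 3 (0.83) and for *UBE2L6* without sgERH culture 1 (0.91), with total counts (0.97) or with all 24 libraries (0.99).

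Negative differences were found in non-coding genes that are mostly nuclear, with -1.51 for *KCNQ1OT1*, -1.28 for *SNHG1*, -1.31 for *MIR29B2CHG* and -1.12 for *MIR222HG*, and in *EIF4A2* (-1.02) and *ZNF461* (-1.08). Calls were lost for *MIR29B2CHG* without sgAAVS1 culture 1 (-1.11) or 3 (-0.97), for *EIF4A2* without sgERH culture 2 or sgAAVS1 culture 1 (-0.997 and -0.978) or with the length offset (-0.82) and for *ZNF461* without sgAAVS1 culture 1 (-0.97). *IGFN1* had -4.01, a fitted value that depends on the prior count because its sgAAVS1 cytoplasmic libraries were at 0, and lost its call with the length offset (-3.28). Introns with a smaller contrast in sgERH cells were *PIK3C2A* intron 10 (-3.97), *MAT2A* intron 6 (-2.56), *CLK1* introns 3 (-2.34) and 4 (-1.54) and *OGT* intron 4 (-1.91), none of which was called by limma. In the same order the limma values were -3.71, -2.64, -2.36, -1.55 and -1.94, at adjusted p from 0.0690 to 0.0972 (limma). The smallest adjusted p of any intron in that test was 0.0689 (limma). The call of *PIK3C2A* intron 10 was lost without sgERH culture 1 (-1.85) or sgAAVS1 culture 1 (-3.37), that of *OGT* intron 4 without sgERH culture 3 (-1.67) or sgAAVS1 culture 2 (-1.57), and that of *CLK1* intron 4 without sgERH culture 2 (-1.44) or 3 (-1.44) or sgAAVS1 culture 3 (-1.46). With no replicate block the calls of *PIK3C2A* intron 10 (-3.88) and *OGT* intron 4 (-1.86) were lost, and with exactly spliced reads that of *CLK1* intron 4 (-1.28).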

How the results depend on the processing

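The counts of genes called higher and lower in sgERH nuclei stayed within 1.5 times of the reported ones in all alternatives run, from 4473 to 5442 higher and 3234 to 4108 lower. Scaling by median ratios or by totals moved the median of all genes to 0.15 and 0.24. Without the replicate block 4929 genes were higher and 4072 lower, and 300 and 666 differed between guides. The differences between guides in introns were not stable. The larger and smaller contrasts numbered 15 and 1377 (1392 in all) with no replicate block, 0 and 0 by limma, which gave 24850 at an unadjusted p under 0.05 against 10823 by edgeR, and 7 and 615 (622 in all) with exactly spliced reads. Leaving out 1 culture gave 518 to 1546 in all, 3 to 50 larger and 511 to 1508 smaller. Without sgERH cultures 1, 2 and 3 the smaller contrasts were 678, 863 and 511 and the larger 3, 14 and 7, and without sgAAVS1 cultures 1, 2 and 3 they were 1323, 1508 and 862 and 50, 38 and 21. Introns with less depth in the nucleus numbered 259 by limma and 36 without introns that overlap known exons.

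Of 1863 values of 153 results on named genes under alternatives, 1822 kept direction and side of the threshold, 27 lost the call and 7 gained it. The direction turned for *IRF1* (-0.41), *NDUFB1* (-0.94), *NDUFS7* (-0.78) and *SSR4* (-0.29) with the length offset, and for *IFNGR1* with median-ratio scaling (0.0535), total counts (0.14) and DESeq2 (0.0534). The causes were not tested. Of 455 list medians under alternatives 323 stayed within the spread between cultures and 132, over 34 lists, did not. The mitochondrial list has no value without mitochondrial genes. Of 387 values on named introns 371 kept their call. Depth limits introns most in the cytoplasm, where 38.9% of those tested had no depth.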
